A study of Arabidopsis thaliana with 6 samples.

Results

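The transcripts described here are those of the plastid and the mitochondrial genome in developing seeds of Arabidopsis thaliana. All rows of the expression table with a plastid or a mitochondrial gene identifier were taken, which gave 110 of 16967 genes, 92 from the plastid and 18 from the mitochondrion. Whole seeds were sampled 8 days after pollination from tt7-7 and from the wild type Col-0, the accession most used in the laboratory, with 3 samples of each. The tt7-7 mutant affects TT7, which encodes flavonoid 3'-hydroxylase of flavonoid synthesis, and its labels name the Col-0 accession too. Nothing in the labels says what lesion tt7-7 carries or whether samples of a genotype came from separate plants, so p-values measure the spread between these samples, which may be technical. TT7 itself (AT5G07990) was at 86.0, 97.4 and 103 RPKM in tt7-7, against 499, 272 and 240 RPKM in Col-0. RPKM are reads scaled by the length of the gene and the depth of the library.

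Plastids and mitochondria keep small genomes of bacterial origin. The plastid genome encodes core subunits of the photosystems, the cytochrome b6f complex, the ATP synthase, the NADH dehydrogenase-like (NDH) complex and the large subunit of rubisco, together with parts of its own ribosome and of a bacterial-type RNA polymerase. That polymerase needs sigma factors and associated proteins encoded in the nucleus, and it works beside phage-type RNA polymerases that are encoded wholly in the nucleus. In plants, the bacterial-type enzyme is known for transcribing photosynthesis genes, and the phage-type enzymes for transcribing genes of the expression machinery. The mitochondrial genome encodes subunits of the respiratory chain and its ribosome and is transcribed by phage-type enzymes. Embryos of Arabidopsis turn green in mid-development and lose the green colour again as the seed dries.

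Both genomes gave fewer reads in tt7-7. Plastid genes took 0.148%, 0.237% and 0.298% of the reads in tt7-7 replicates 1 to 3, against 0.527%, 1.38% and 0.835% in Col-0 replicates 1 to 3. Each tt7-7 value lay below each Col-0 value. The means were 0.228% ± 0.0757 in tt7-7 and 0.915% ± 0.434 in Col-0 (SD, n = 3 each), so the mean of tt7-7 was 24.9% of that of Col-0. Mitochondrial genes took 0.0436%, 0.0476% and 0.0484% in tt7-7, against 0.256%, 1.21% and 0.423% in Col-0. The tt7-7 samples were close together, the Col-0 samples were not, and the groups did not overlap. Here the mean of tt7-7, 0.0465% ± 0.00260, was 7.40% of the 0.629% ± 0.508 in Col-0 (SD, n = 3 each). With Col-0 replicate 2 left out, the means of tt7-7 were 33.4% of Col-0 for the plastid and 13.7% for the mitochondrion. These shares rest on 6786 to 9823 mitochondrial and 23012 to 60530 plastid reads per tt7-7 library, against 52543 to 165218 mitochondrial and 108256 to 189360 plastid reads per Col-0 library. The Wilson 95% intervals cover counting error only, and the relatively widest ran from 0.0425% to 0.0446%, for the mitochondrial share of tt7-7 replicate 1. In whole seeds, fewer cells or organelles of a kind and less RNA in each cannot be told apart. Any selection of poly(A) RNA is not given in the sources used here, and the part of library preparation in these shares was not tested.

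**Figure D1:**
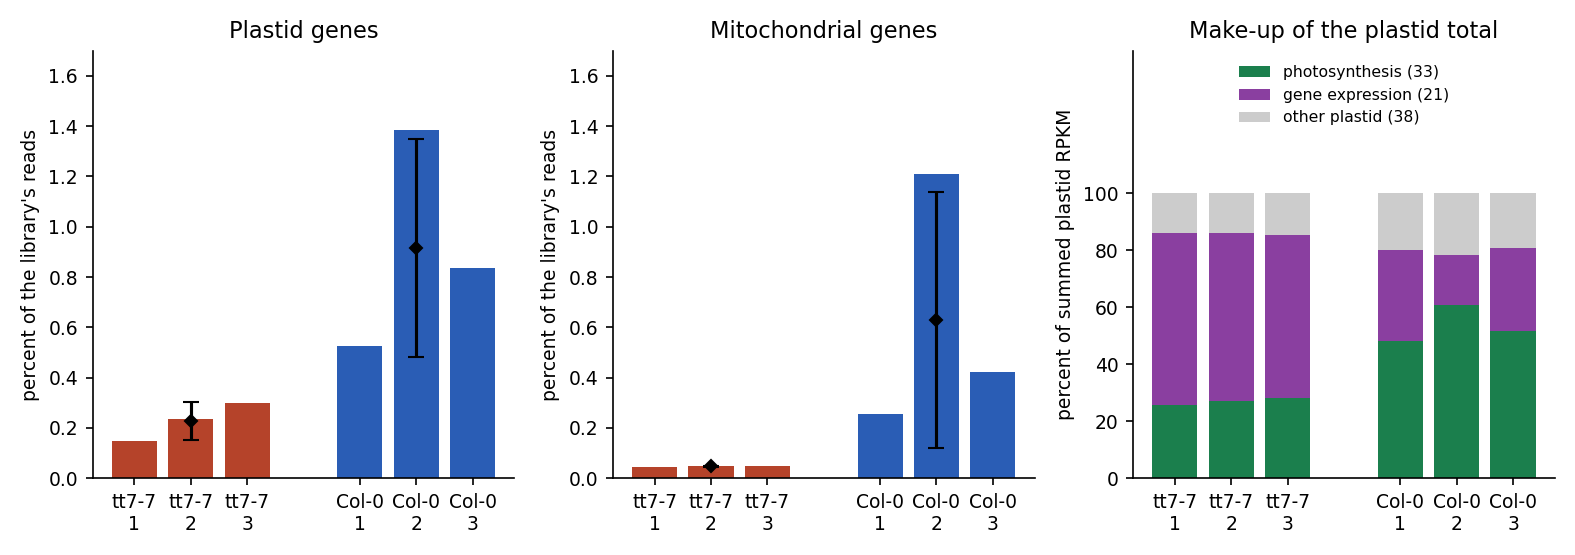
Share of each library's reads in plastid genes (left) and in mitochondrial genes (centre), as a bar per sample with the group mean and SD as a black diamond and line, and the make-up of the summed plastid RPKM (right). All tt7-7 bars are below all Col-0 bars in the left and centre panels, and photosynthesis genes make up 25.6% to 28.2% of the plastid total in tt7-7 and 48.0% to 60.6% in Col-0.

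The balance between the summed levels of the genomes differed as well. Summed plastid RPKM were 8.31, 13.2 and 16.4 times the summed mitochondrial RPKM in tt7-7, against 5.77, 2.81 and 5.82 times in Col-0. Every tt7-7 ratio was above every Col-0 ratio. The means were 12.6 ± 4.06 in tt7-7 and 4.80 ± 1.72 in Col-0 (SD, n = 3 each). The mitochondrial sum came mostly from 3 genes, ATMG00020, ATMG00030 and the ribosomal RNA gene rrn18. They made up 88.6% to 96.5% of it per sample, so the ratios mainly follow those 3 genes and not the mitochondrial genes at large. With 3 samples against 3, an exact two-sided permutation test of a single value cannot give a p below 0.1, and none was run on these shares and ratios.

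Gene by gene, the genotypes were compared with limma on log2(RPKM + 1), fitted over the 16663 genes of the table that averaged 2 RPKM or more. Of the 109 organelle genes tested, 97 were lower in tt7-7 at a Benjamini-Hochberg adjusted p under 0.05, where 8.47% of all tested genes were lower. No organelle gene was higher, where 51.1% of all tested genes were higher and 59.6% passed in either direction. The tt7-7 and Col-0 values did not overlap for 96 of the 109, all with tt7-7 below, which was so for 9.97% of all tested genes, while tt7-7 was wholly above for 0 organelle genes and for 56.2% of all tested genes. By genome, 79 of 91 plastid genes and 18 of 18 mitochondrial genes were lower. The median log2 difference, tt7-7 minus Col-0, was -2.89 over the plastid genes and -1.84 over the mitochondrial genes, while it was 0.44 over all tested genes. With the samples rescaled by median ratios, which puts the median of all tested genes at -0.03, 88 plastid and 18 mitochondrial genes were lower, where 27.6% of all tested genes were lower. The authors' table keeps a gene only if 1 or both genotypes lie above 2 RPKM throughout, and all 110 organelle genes met this in Col-0, but 36 plastid and 12 mitochondrial genes did not meet it in tt7-7. Those could hardly be anything but lower, so the counts and medians are a description. Of the 62 genes above 2 RPKM in every sample of both genotypes, 50 were lower, with a median of -2.63. Among these, the medians were -2.63 over 56 plastid and -2.42 over 6 mitochondrial genes, so the 2 genomes were closer than over all members. The remaining organelle gene, ATCG00260, was left out of the test for its low mean, with 0 reads in each tt7-7 library, which allows up to 2.05 to 2.67 RPKM (3 reads), against 2.03, 2.03 and 2.16 RPKM, or 2 to 3 reads, in Col-0.

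**Figure D2:**
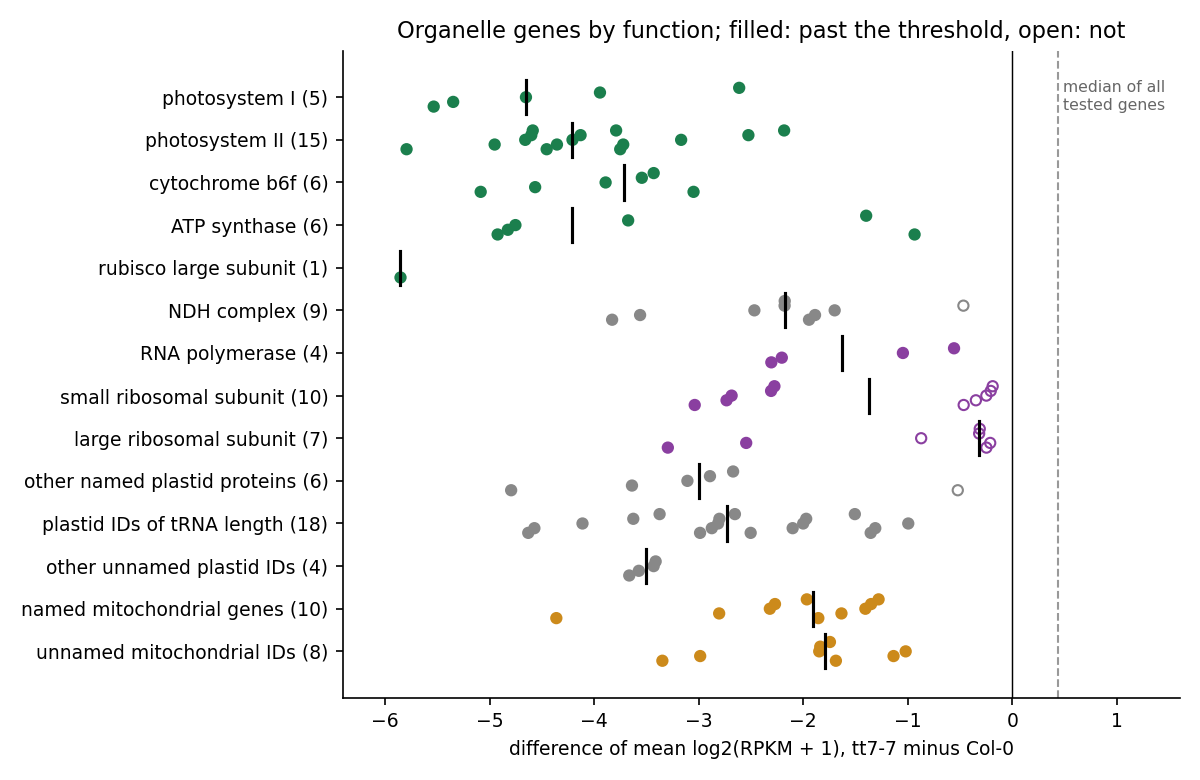
Log2 difference (tt7-7 minus Col-0, from log2(RPKM + 1)) of each tested organelle gene, grouped by function with the number of genes in brackets; filled points passed an adjusted p of 0.05 and open points did not, and the vertical stroke is the median of the group. All 33 photosynthesis genes (green) are filled, from -5.86 to -0.94, while open points gather near 0 in the ribosomal groups (purple).

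All 33 photosynthesis genes fell in tt7-7, with a median log2 difference of -4.21. Of these, 22 were above 2 RPKM in every tt7-7 sample, and the rest entered the table through Col-0 and could hardly be anything but lower. The rubisco large subunit gene rbcL, whose product fixes carbon dioxide, was at 3.12, 7.10 and 6.70 RPKM in tt7-7, against 177, 935 and 300 RPKM in Col-0. The lowest Col-0 value was far above the highest tt7-7 value. Its log2 difference of -5.86 (SE 0.526, limma adjusted p = 9.70e-05) was the most negative of all organelle genes, and the mean of tt7-7 was 1.20% of that of Col-0.

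The 15 tested photosystem II genes ranged from -5.79 to -2.18. psbA, which encodes the D1 reaction-centre protein, was at 6.17, 9.62 and 15.4 RPKM in tt7-7, against 311, 1664 and 409 RPKM in Col-0. The difference was -5.79 (SE 0.559, limma adjusted p = 0.000116). psbM, which encodes a small subunit of the dimer, differed by the least in this group. It was at 211, 341 and 540 RPKM in tt7-7, against 1129, 1227 and 2638 RPKM in Col-0, a difference of -2.18 (limma adjusted p = 0.00149). Unlike psbA, it was highest in Col-0 replicate 3 and not in replicate 2.

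In photosystem I, 5 of 5 genes fell, with a median of -4.65, though only 1 was above 2 RPKM in every tt7-7 sample. psaB, which encodes a reaction-centre core protein, was at 1.75, 1.87 and 3.28 RPKM in tt7-7, against 67.5, 351 and 138 RPKM in Col-0 (difference -5.53, SE 0.487, limma adjusted p = 9.18e-05). The small subunit gene psaJ was at 44.2, 70.9 and 127 RPKM in tt7-7, against 265, 661 and 541 RPKM in Col-0 (difference -2.61, limma adjusted p = 0.000719). These groups did not overlap either, but the mean of tt7-7 was 16.5% of that of Col-0 for psaJ and 1.24% for psaB. The photosystem I assembly gene ycf4 lay beside them at -4.79, on 1, 14 and 8 reads in tt7-7, against 249, 667 and 473 reads in Col-0.

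The 6 cytochrome b6f genes, whose complex carries electrons between the photosystems, ranged from -5.08 to -3.05. petB, the gene of cytochrome b6, was at 2.18, 3.37 and 3.19 RPKM in tt7-7, against 71.6, 286 and 108 RPKM in Col-0 (difference -5.08, limma adjusted p = 8.72e-05). petD, the gene of subunit IV, was at 1.99, 5.34 and 4.08 RPKM in tt7-7, against 56.6, 233 and 93.4 RPKM in Col-0 (difference -4.56, limma adjusted p = 0.000126).

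The ATP synthase genes were the most unequal of the photosynthesis groups. Of the 6, atpA, atpF, atpH and atpI lay between -4.92 and -3.67, and these 4 genes were singled out after their values were seen. atpB and atpE, which encode the beta and epsilon subunits of the catalytic head, fell by less. atpB was at 159, 258 and 312 RPKM in tt7-7, against 483, 764 and 641 RPKM in Col-0 (difference -1.40, SE 0.270, limma adjusted p = 0.00198). atpE was at 209, 421 and 501 RPKM in tt7-7, against 573, 711 and 760 RPKM in Col-0 (difference -0.94, SE 0.306, limma adjusted p = 0.0257). Its groups came close without overlapping, and its call was lost under quantile normalization, at -0.51, and without tt7-7 replicate 1, at -0.56, Col-0 replicate 2, at -0.90, or Col-0 replicate 3, at -0.85. The genes atpB and atpE share 4 bases, so their reads are not fully separable.

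NDH genes, whose complex returns electrons to the plastoquinone pool, were lower in 8 of 9 cases, with a median of -2.18. Of the 9, 5 were above 2 RPKM in every tt7-7 sample. ndhJ was at 25.0, 34.1 and 59.1 RPKM in tt7-7, against 127, 229 and 171 RPKM in Col-0 (difference -2.18, limma adjusted p = 0.000438). ndhK was at 38.4, 66.9 and 101 RPKM in tt7-7, against 148, 272 and 229 RPKM in Col-0 (difference -1.70, limma adjusted p = 0.00231). The exception was ndhH, at 10.4, 15.1 and 13.7 RPKM in tt7-7, against 12.5, 23.8 and 20.4 RPKM in Col-0, where the groups overlapped.

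**Figure D3:**
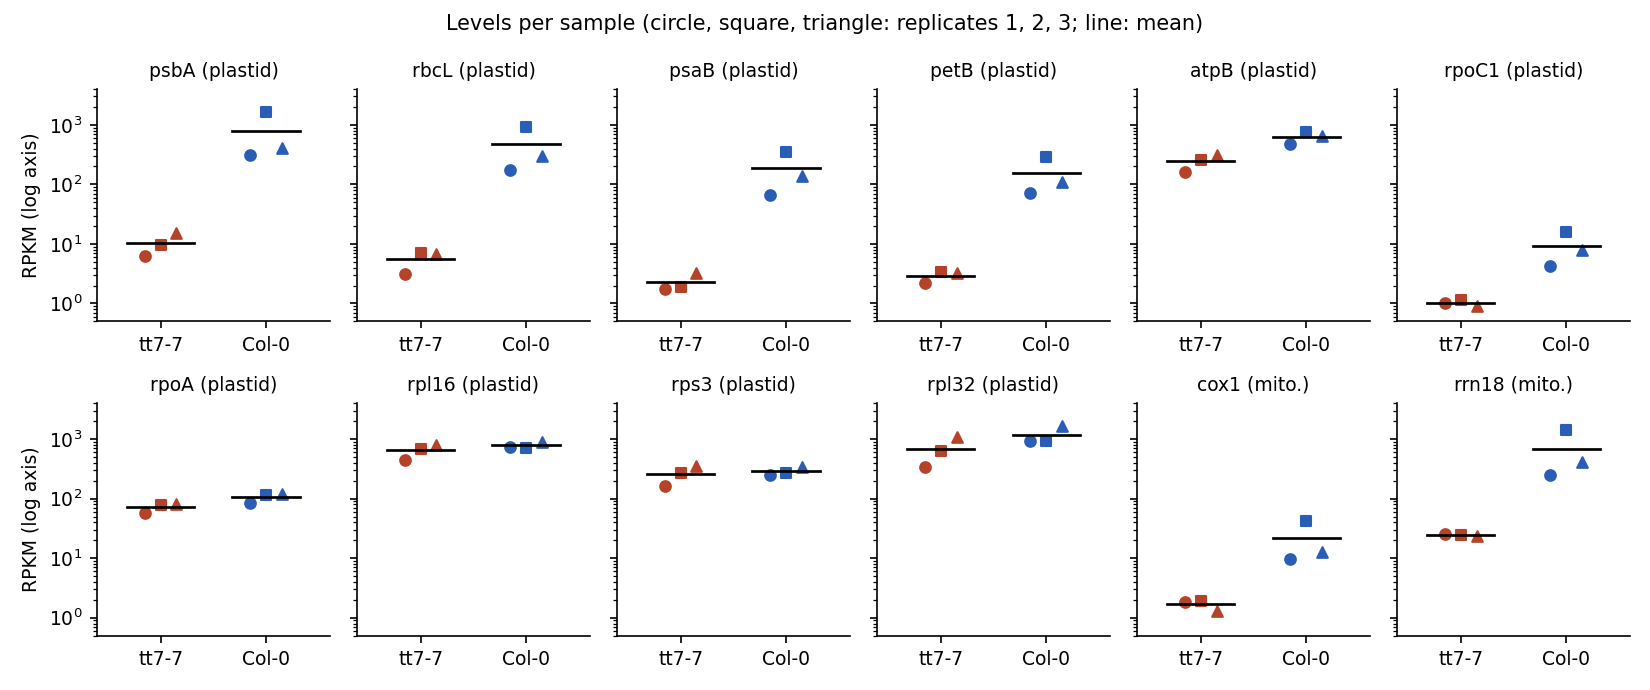
RPKM on a log axis in each sample for 12 organelle genes, tt7-7 left and Col-0 right, with the marker shape giving the replicate number and the line the group mean. psbA, rbcL, psaB and petB are separated by more than a factor of 10 between the nearest samples, while rpl16, rps3 and rpl32 overlap.

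The genes of the plastid's own expression machinery spread widely. Of the 21, 11 were lower and 10 did not pass the test, and the median log2 difference was -0.87, with a range of -3.29 to -0.19. Under median-ratio scaling 18 of the 21 were lower, with a median of -1.39. All 4 genes of the bacterial-type RNA polymerase were lower. Only rpoA was above 2 RPKM in every tt7-7 sample, so the other polymerase genes could hardly be anything but lower. rpoC1, the gene of the beta' subunit, was at 1.01, 1.14 and 0.892 RPKM in tt7-7, against 4.26, 15.7 and 8.05 RPKM in Col-0 (difference -2.21, SE 0.346, limma adjusted p = 0.000703). rpoA, the gene of the alpha subunit, was at 57.6, 78.7 and 80.2 RPKM in tt7-7, against 84.7, 116 and 120 RPKM in Col-0 (difference -0.56, SE 0.189, limma adjusted p = 0.0292). The rpoA groups came close, and its call was lost without tt7-7 replicate 1 (-0.41), Col-0 replicate 2 (-0.49) or Col-0 replicate 3 (-0.47).

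Among the ribosomal protein genes, 5 of 10 of the small subunit and 2 of 7 of the large subunit were lower, against 8 of 10 and 6 of 7 under median-ratio scaling. rps3 was at 161, 272 and 357 RPKM in tt7-7, against 252, 267 and 346 RPKM in Col-0. The samples of the genotypes were interleaved, and the difference was -0.19 (SE 0.276, limma adjusted p = 0.578). rps19 was at 98.0, 157 and 176 RPKM in tt7-7, against 143, 149 and 215 RPKM in Col-0, a difference of -0.25 (limma adjusted p = 0.401). rpl16 was at 444, 679 and 810 RPKM in tt7-7, against 734, 707 and 901 RPKM in Col-0, a difference of -0.31 (limma adjusted p = 0.291). In these 3 genes tt7-7 replicate 1 was the lowest sample, and the direction depended on the setting: without that sample rps3 was at 0.13 and rps19 at 0.00, and under quantile normalization rpl16 was at 0.24 and rps3 at 0.10. rpl32 was at 343, 638 and 1077 RPKM in tt7-7, against 930, 941 and 1659 RPKM in Col-0. That difference, -0.87 (SE 0.400, limma adjusted p = 0.0861), passed the threshold under median-ratio scaling, at -1.39, and without tt7-7 replicate 3, at -1.27. The lowest members of the ribosomal groups were rpl33, at -3.29, and rps4, at -3.04, named after their values were seen.

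The make-up of the plastid transcripts differed between the genotypes. The median log2(RPKM + 1) of the photosynthesis genes minus that of the gene-expression genes was -2.45, -2.13 and -2.30 in tt7-7 replicates 1 to 3, against -0.14, 0.95 and -0.14 in Col-0 replicates 1 to 3. The gap was -2.30 ± 0.160 in tt7-7 and 0.22 ± 0.629 in Col-0 (SD, n = 3 each), and the groups did not overlap. Photosynthesis genes made up 25.6%, 27.0% and 28.2% of the summed plastid RPKM in tt7-7, against 48.0%, 60.6% and 51.7% in Col-0. Gene-expression genes made up 60.5%, 58.9% and 57.3% in tt7-7, against 32.0%, 17.8% and 29.0% in Col-0. These shares do not depend on how the libraries are scaled to each other. No test of the gap was made, because the lists were chosen with earlier results of these data known.

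**Figure D4:**
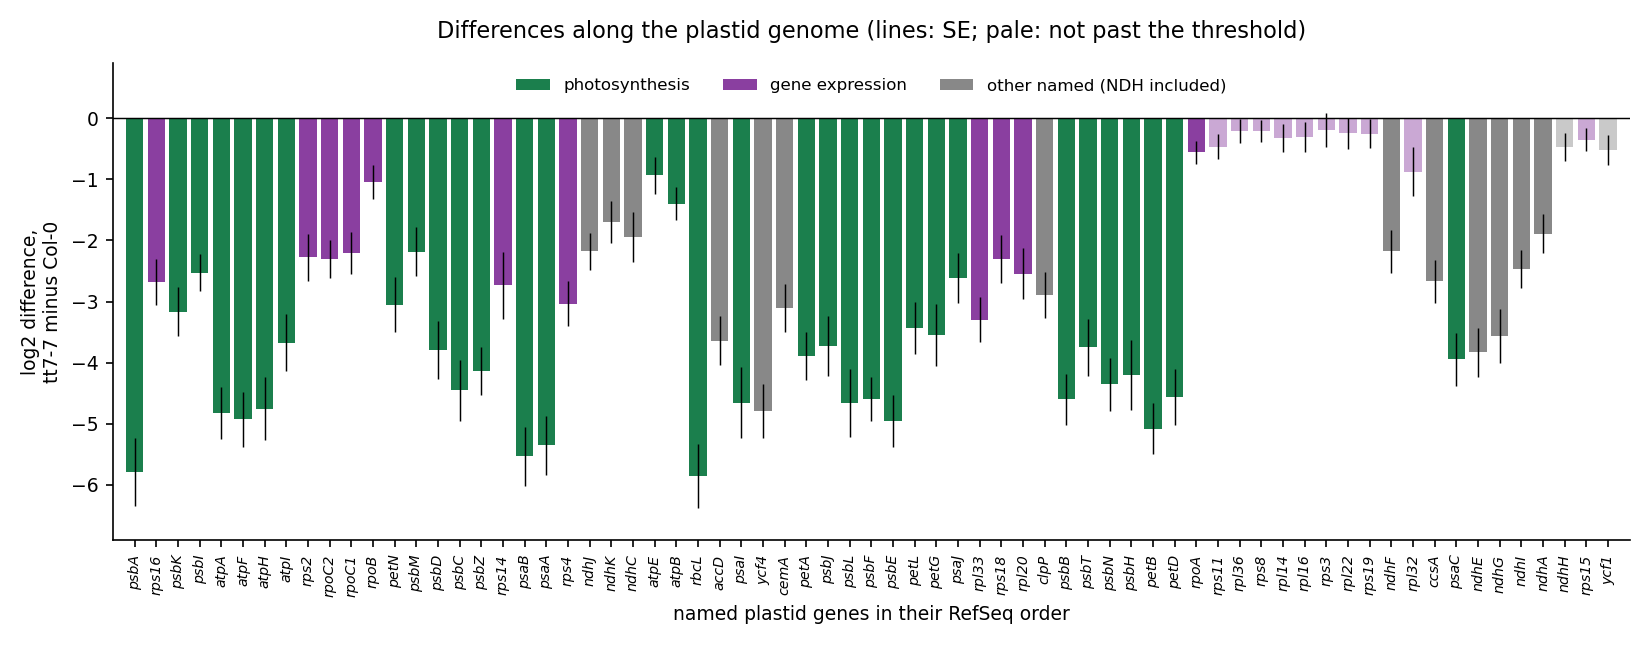
Log2 difference, tt7-7 minus Col-0, for the 69 named plastid genes in their order along the plastid genome; lines are standard errors and pale bars did not pass an adjusted p of 0.05. The bars from rpoA to rps19 reach no lower than -0.56, beside petB and petD at -5.08 and -4.56, and the bars from psaC to rps15 shorten step by step.

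Ordered along the genome, the plastid genes that did not pass the test stood together, apart from rpl32. The 9 genes from rps19 to rpoA, which are consecutive among the named genes in RefSeq order, ranged from -0.56 to -0.19, with a median of -0.25, and of these only rpoA was lower at the threshold. The tt7-7 means of these 9 genes were 67.6% to 91.4% of the Col-0 means. The next genes beyond rpoA, petD and petB, were at 2.98% and 1.88%. With the median of all tested genes at 0.44, the 9 genes were still below that median on the deposited scale, and with median-ratio scaling their own median was -0.77 and 6 of the 9 were lower. The run took 47.3%, 43.9% and 38.6% of the summed plastid RPKM in tt7-7, against 20.5%, 10.3% and 16.6% in Col-0. Outside it, 10 of the other 12 gene-expression genes were lower, with a median of -2.31, but only 6 of the 12 were above 2 RPKM in every tt7-7 sample. Because the run was noticed in these values, it was not tested.

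At the other end of the gene order a graded series was seen. From psaC through ndhE, ndhG, ndhI, ndhA, ndhH and rps15 to ycf1, the log2 differences were -3.94, -3.83, -3.56, -2.47, -1.89, -0.47, -0.35 and -0.52. The last 3 did not pass the test. ycf1, which encodes a large protein assigned to the import machinery of the inner envelope, was at 51.8, 77.1 and 100 RPKM in tt7-7, against 90.9, 100 and 132 RPKM in Col-0 (difference -0.52, limma adjusted p = 0.0887), and it passed under median-ratio scaling, at -1.04, and without tt7-7 replicate 3, at -0.74. Near neighbours could also differ sharply. atpB stood at -1.40 next to rbcL at -5.86, and rps14 at -2.73 next to psaB at -5.53, in the order of the named genes. These 2 stretches and the pairs were picked after the values were seen.

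The other named plastid genes followed no single course. clpP, the gene of a protease subunit, was at 7.71, 12.6 and 15.8 RPKM in tt7-7, against 52.4, 158 and 94.8 RPKM in Col-0 (difference -2.89, limma adjusted p = 0.000276). accD, the gene of an acetyl-CoA carboxylase subunit for fatty acid synthesis, was at -3.64 and was added after its value was seen. The 19 plastid identifiers with the length of a tRNA gene, 71 to 92 bases, could not be assigned to single tRNAs here. In RefSeq, 37 of the 38 plastid genes with exons of 70 to 93 bases are tRNA genes. All 18 of them that were tested were lower, from -4.63 to -0.996. Of the 19, 10 were above 2 RPKM in every tt7-7 sample. The 4 other plastid identifiers without a name were lower too. Across the 91 tested plastid genes the difference was unrelated to gene length (Pearson r = -0.024) and to the mean level (r = 0.039), as a description, since genes of 1 genome share libraries and transcripts.

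All 18 mitochondrial genes fell, from -4.36 to -1.02. Only 6 of them were above 2 RPKM in every tt7-7 sample, and the rest could hardly be anything but lower. Across the 18 genes the difference followed the mean level (Pearson r = -0.81), as a description. Since the added 1 RPKM compresses the differences of low genes, their range and median cannot be set directly against those of the plastid genes. The nuclear genome of Arabidopsis carries a long copy of mitochondrial DNA, and how reads with several matches were counted is not given in the labels, so mitochondrial levels are uncertain to that extent. rrn18, the gene of the small-subunit ribosomal RNA, was at 25.8, 24.2 and 23.7 RPKM in tt7-7, against 251, 1411 and 405 RPKM in Col-0. The tt7-7 samples were nearly level, and the difference was -4.36 (SE 0.507, limma adjusted p = 0.000191). rrn5, the gene of the 5S ribosomal RNA, was at 10.9, 11.3 and 12.9 RPKM in tt7-7, against 36.3, 49.6 and 50.4 RPKM in Col-0 (difference -1.86, SE 0.159, limma adjusted p = 8.72e-05). Its Col-0 samples were close together where those of rrn18 were spread widely.

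ATMG00020, which has no name in the sources used here, was at 122, 139 and 140 RPKM in tt7-7, against 691, 3184 and 1157 RPKM in Col-0 (difference -3.35, limma adjusted p = 0.000359). Together with the unnamed ATMG00030, chosen after its values were seen, and rrn18, it made up 89.6%, 89.1% and 88.6% of the summed mitochondrial RPKM in tt7-7, against 93.6%, 96.5% and 94.0% in Col-0. The other 15 mitochondrial genes summed to 37.1, 40.0 and 44.4 RPKM in tt7-7, against 114, 275 and 175 RPKM in Col-0. The summed RPKM of all mitochondrial genes averaged 371 in tt7-7 and 4198 in Col-0. Most of the lower mitochondrial total was thus carried by those 3 genes. The sum of the other 15 genes was also lower in tt7-7, without overlap between the groups, but it made up a small part of the total.

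The respiratory chain genes were at low levels in both genotypes. cox1, the gene of the catalytic subunit of cytochrome c oxidase, was at 1.86, 1.94 and 1.28 RPKM in tt7-7, against 9.86, 42.2 and 12.9 RPKM in Col-0 (difference -2.80, limma adjusted p = 0.000649). cox2 of the same complex was at -1.63 and the complex I genes nad9 and nad4L were at -1.97 and -1.41. atp4, of the mitochondrial ATP synthase, was at -1.35, and ccmB, of cytochrome c maturation, at -1.28. nad4L rested on 3, 12 and 7 reads in tt7-7, against 19, 29 and 29 reads in Col-0. The mitochondrial ribosomal genes rps3 (ATMG00090) and rpl16 (ATMG00080) were at -2.32 and -2.27 (limma adjusted p = 0.000604 and 0.00124). The plastid genes of the same names, at -0.19 and -0.31, did not pass the test. Whether these pairs differ from each other was not tested.

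**Figure D5:**
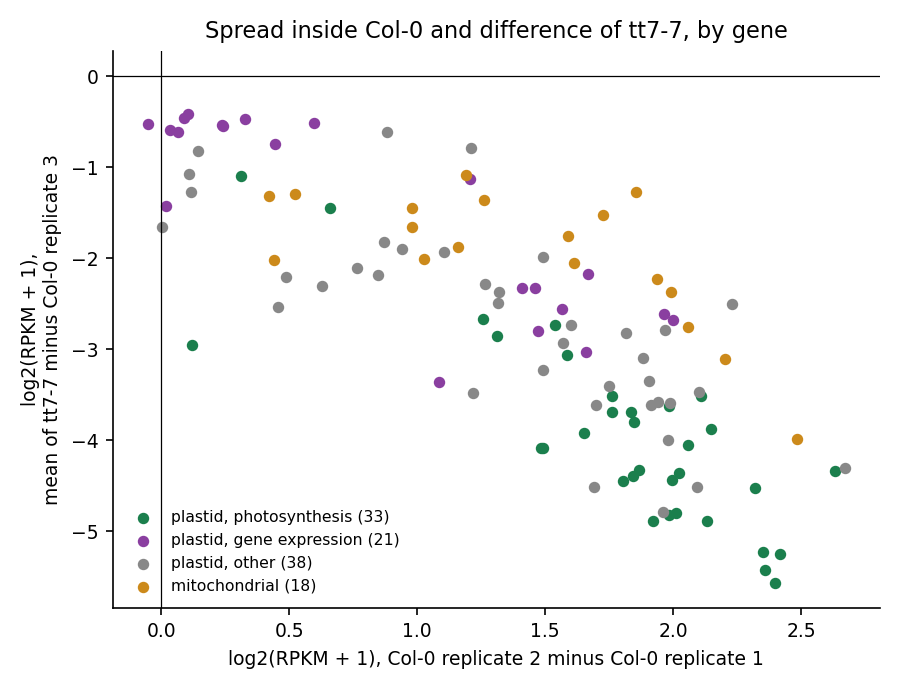
For each of the 110 organelle genes, the difference between Col-0 replicates 2 and 1 (horizontal) and the difference between the tt7-7 mean and Col-0 replicate 3 (vertical), both in log2(RPKM + 1). No sample enters both axes, and plastid genes that were furthest apart between the Col-0 samples lie lowest, with Pearson r = -0.85 over 92 plastid genes.

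The Col-0 samples differed among themselves, most in the genes that were lowest in tt7-7. Col-0 replicate 2 was the highest of the 6 samples for 89 of the 110 organelle genes, and tt7-7 replicate 1 the lowest for 88. By genome, tt7-7 replicate 1 was the lowest for 80 of 92 plastid and 8 of 18 mitochondrial genes. Col-0 replicate 2 minus Col-0 replicate 1 had a median log2 difference of 1.87 over the photosynthesis genes, 0.60 over the gene-expression genes, 0.10 over the run from rps19 to rpoA and 1.43 over the mitochondrial genes, while it was -0.12 over all tested genes. The difference of the tt7-7 mean to Col-0 replicate 3, which shares no sample with that contrast, had a Pearson r of -0.85 and a Spearman rho of -0.84 with it across the 92 plastid genes, and of -0.68 and -0.61 across the 18 mitochondrial genes. Genes share libraries and transcripts, so these are descriptions. The added 1 RPKM also compresses both differences in low genes, and only 6 of the 18 mitochondrial genes were above 2 RPKM in every tt7-7 sample. Inside tt7-7, replicate 3 was above replicate 1 by a median of 0.97 over the photosynthesis genes and 0.83 over the gene-expression genes, but by 0.07 over the mitochondrial genes. Without Col-0 replicate 2, 76 plastid and 18 mitochondrial genes were still lower in tt7-7, and the median of the photosynthesis genes was -3.75.

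Markers of seed parts were compared in the same fit. All 9 embryo maturation markers (storage proteins and oleosins) were lower in tt7-7, with summed levels of 915 to 6030 RPKM in tt7-7 and 19865 to 127376 RPKM in Col-0. In Col-0 the sums of these markers were lowest in replicate 1 and highest in replicate 3. There both organelle shares of reads were lowest in replicate 1 and highest in replicate 2. In tt7-7 the sums of these markers were lowest in replicate 2 and highest in replicate 3. Both organelle shares of reads in tt7-7 were lowest in replicate 1 and highest in replicate 3. Of 6 seed coat markers 5 were higher (STK, TT16, BAN, TT12 and TT2), with sums of 464 to 652 RPKM in tt7-7 and 132 to 249 RPKM in Col-0. BAN alone was at 285 to 427 RPKM in tt7-7, so the sums mostly follow it. The other marker, MUM4, was not called, at -0.01, and was lower under median-ratio scaling, at -0.52. Whether the 5 reflect more seed coat or regulation of these genes was not tested. Of the 5, TT16 was not above 2 RPKM in every Col-0 sample and entered the table through tt7-7. Of 5 measured endosperm markers, 3 were higher (2 under median-ratio scaling). The sums over the 5 were 59.8 to 72.6 RPKM in tt7-7 and 25.2 to 56.1 RPKM in Col-0. The 2 that stayed higher, FIS2 and FWA, were not above 2 RPKM in every Col-0 sample. They entered the table through tt7-7 and could hardly be anything but higher. Of 5 embryo identity markers 3 were higher and 1 lower, against 1 higher and 2 lower under median-ratio scaling, with sums of 205 to 258 RPKM in tt7-7 and 257 to 331 RPKM in Col-0. Of all tested genes, 51.1% were higher on the deposited scale and 26.3% under median-ratio scaling, so the endosperm and embryo identity counts say little about these markers. No marker was at 0 in any sample. The part of seed composition or stage in the organelle results was not tested.

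The nuclear genes that serve the plastid genome were read from the same fit. All 21 tested nuclear partners of the plastid photosynthesis complexes, such as further photosystem subunits and the rubisco small subunit, were lower, with a median of -1.06 and a range of -1.53 to -0.57. Under median-ratio scaling all 21 were lower, but under quantile normalization 13 of the 21 were, where 21.5% of all tested genes were lower, and their median was -0.56. RBCS1B, a rubisco small subunit gene (AT5G38430), was at 66.9, 71.5 and 63.4 RPKM in tt7-7, against 184, 158 and 171 RPKM in Col-0 (difference -1.33, limma adjusted p = 0.000124). PSBP-1 (AT1G06680), of the oxygen-evolving complex, was at 589, 665 and 703 RPKM in tt7-7, against 1567, 1620 and 1741 RPKM in Col-0 (difference -1.33, limma adjusted p = 0.000349). The RBCS1B mean of tt7-7 was 39.3% of that of Col-0, where that of rbcL was 1.20%. RBCS genes are near-identical copies, so reads may be split among them.

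The 2 tested phage-type RNA polymerases of the organelles were higher, where 51.1% of all tested genes were higher. Neither was above 2 RPKM in every Col-0 sample, so both entered the table through tt7-7 and could hardly be anything but higher. AT1G68990 (MGP3), the mitochondrial enzyme, was at 4.32, 5.06 and 4.38 RPKM in tt7-7, against 1.02, 0.896 and 0.507 RPKM in Col-0 (difference 1.64, limma adjusted p = 0.00012). AT2G24120 (SCA3), the plastid enzyme, was at 6.03, 7.13 and 7.83 RPKM in tt7-7, against 1.95, 2.02 and 1.41 RPKM in Col-0 (difference 1.52, limma adjusted p = 0.000133). Both remained higher under median-ratio scaling, at 1.31 and 1.12, where 26.3% of all tested genes were higher. A related gene, AT5G15700, was not tested for its low mean.

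Of 6 sigma factor genes, 2 were higher and 4 did not pass, where 51.1% of all tested genes were higher. Under median-ratio scaling 1 was higher and 2 lower, so the list has no direction that holds under both scalings. SIGC (AT3G53920) was at 8.70, 11.9 and 12.2 RPKM in tt7-7, against 5.15, 4.51 and 5.59 RPKM in Col-0 (difference 0.96, limma adjusted p = 0.001), and its call was lost under quantile normalization, at 0.40. SIGA (AT1G64860) was at 21.4, 26.2 and 32.4 RPKM in tt7-7, against 18.8, 18.3 and 20.2 RPKM in Col-0 (difference 0.44, limma adjusted p = 0.0406), which is close to the median of all tested genes, and it turned to -0.06 under median-ratio scaling. Its call was also lost without any one sample except tt7-7 replicate 1.

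Of 12 nuclear proteins associated with the plastid polymerase, 7 were higher, 1 lower and 4 not called, with a median of 0.48, which is close to the 51.1% higher and the median of 0.44 of all tested genes. Under median-ratio scaling 4 were higher and 4 lower. PTAC12 (AT2G34640), a polymerase-associated protein, was at 23.9, 24.5 and 32.4 RPKM in tt7-7, against 13.1, 13.1 and 10.9 RPKM in Col-0 (difference 1.06, limma adjusted p = 0.000532). MURE (AT1G63680) was at 1.04 (limma adjusted p = 0.000663). Of 10 nuclear genes of plastid RNA processing and stability, 7 were higher and 2 lower, against 3 higher and 3 lower under median-ratio scaling. Of all tested genes, 51.1% were higher and 8.47% lower, against 26.3% and 27.6% under median-ratio scaling. Among the higher genes, AT2G04270 (RNEE/G) entered the table through tt7-7, at 2.06, 1.75 and 1.99 RPKM in Col-0. EMB2730 (AT5G02250), an exoribonuclease gene, was at 6.47, 7.83 and 7.57 RPKM in tt7-7, against 3.64, 3.01 and 3.22 RPKM in Col-0 (difference 0.95, limma adjusted p = 0.000543). CRB (AT1G09340), a chloroplast RNA-binding protein gene, was at 102, 97.7 and 129 RPKM in tt7-7, against 251, 233 and 248 RPKM in Col-0 (difference -1.16, limma adjusted p = 0.00031).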

How the data were processed

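The authors deposited 1 table of RPKM values for the 6 samples, written with decimal commas. Per the submitters' processing notes the tools were cutadapt, FastQC, HISAT2, HTSeq and DESeq2 and the genome build TAIR10. Not given in the sources used here are their versions and settings, the strand, and any selection of poly(A) RNA. Without strand, reads of overlapping genes cannot be told apart; in RefSeq psbD and psbC share 53 bases, ycf1 and ndhF 39, and rps3 and rpl22 16. Since RPKM rise in steps of 1 read, reads and library totals were recovered; they came out whole within 0.02 for 16855 genes, 99.3% of the table. Totals were 15577456, 20162748 and 20300393 reads in tt7-7 and 20547689, 13677094 and 19327827 reads in Col-0. The 100 highest genes held 16.1% to 17.2% of the reads in tt7-7 and 24.3% to 34.6% in Col-0.

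The table gives no symbols for organelle genes. A symbol was written down for each identifier from general knowledge and used only where the length recovered from the steps equalled that gene's length in RefSeq (TAIR10.1), which named 69 plastid and 10 mitochondrial genes. For 64 of these no other RefSeq gene of that genome has the length. Nuclear symbols are those of RefSeq. No coordinates are given, as the builds are not shown to be the same.

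limma 3.58.1 (R 4.3.3) was fitted with an intensity-dependent prior variance to log2(RPKM + 1) of all 6 samples without covariates. P-values are two-sided and adjusted over the 16663 tested genes. Differences understate the change of low genes. On simulated reads for 16578 genes, 100% of 195 genes changed 4-fold were recovered, and 6.25% of calls were unchanged genes. The simulation set a dispersion of 0.05 between samples and changed only well-covered genes. Organelle genes could spread more, as rbcL did in Col-0 (mean 471, SD 407 RPKM), and some had few reads. Recovery for such genes was therefore not checked. Named genes were the 2 highest by mean RPKM of each functional list, the 2 largest differences in each direction per genome, the 2 lowest p-values per nuclear list, and TT7. Members and lists were chosen with earlier results of these data known. Alternatives were other pseudocounts, filters, scalings, a prior without trend, voom on recovered reads, a block of replicate numbers, and the omission of single samples. The other steps ran in Python 3.11.15 (pandas 2.3.3, numpy 2.4.6, scipy 1.17.1; figures with matplotlib 3.10.9).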

Additional observations from a re-analysis of the deposited data

How the results depend on the processing

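The count of lower plastid genes ran from 66 to 88 over the alternatives, and 0 organelle genes were higher in any of them. At a mean of at least 10 RPKM, 6 of the 6 mitochondrial genes still tested were lower, the medians were -2.89 (mitochondrial) and -0.41 (gene expression), and the gap between photosynthesis and gene-expression genes was -4.06, against -2.52 as reported; fewer genes were tested there. A pseudocount of 0.1 RPKM put the mitochondrial median at -2.39, and median-ratio scaling put the gene-expression median at -1.39. Reversed were SIGA (AT1G64860, -0.058) under median-ratio scaling, rpl16 (ATCG00790, 0.24) and rps3 (ATCG00800, 0.098) under quantile normalization, and, without tt7-7 replicate 1, rps3 (0.13) and rps19 (ATCG00820, 0.0033); with 1 sample left out these ran from -0.44 and -0.42 up to those values. The cause was not tested.

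With each sample left out in turn, 75 to 82 plastid and 17 to 18 mitochondrial genes were lower. The medians ran from -4.79 to -3.75 (photosynthesis), from -1.12 to -0.45 (gene expression, the last without tt7-7 replicate 1) and from -2.09 to -1.51 (mitochondrial), and the gap from -2.70 to -2.16. The log2 ratios of the shares of reads ran from -2.30 to -1.60 (plastid) and from -3.94 to -2.82 (mitochondrial). The deviations of same-numbered samples from their group means correlated at 0.21, -0.19 and 0.48. With 3 samples per group, these values cannot show whether the numbers pair the samples. With the replicate number as a block, 84 plastid and 18 mitochondrial genes were lower, with rpl32 and ycf1 among them. Of the 110 organelle genes, 4 had 0 reads in some library, and genes of tRNA length rest on few reads.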
